A study of Mus musculus with 6 samples.

Results

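The insulin signalling route and the FOXO transcription factors at its end were examined in mouse brown adipocytes that carried both PGC-1 coactivators, lacked PGC-1α, or lacked PGC-1α with PGC-1β also knocked down. The 9 genes were Insr, Irs1, Irs2, Pik3r1, Pik3ca, Akt1, Akt2, Foxo1 and Foxo3, and their members were all probe sets that the platform annotation assigns to 1 of these symbols alone. They are 9 of 18193 genes with such a probe set. There were 29 such probe sets among 45037 on the array, of which 34945 carried a single symbol. Pik3ca had 6 of them, Pik3r1, Akt1 and Foxo1 had 4 each, Insr, Akt2 and Foxo3 had 3 each, and Irs1 and Irs2 had 1 each. One further probe set that names Foxo3 beside a second gene, Gm38485, was left out, with intensities between 143.9 and 222.1.

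RNA came from 6 cultures, each on its own one-colour array, with 2 arrays in each of 3 groups. The wild-type group carried no stated genetic change and its titles name no siRNA. The knockout-control group lacked PGC-1α (PGC-1alpha -/-) and expressed a control siRNA. The knockdown group also lacked PGC-1α and expressed an siRNA against PGC-1β. All were brown fat cells immortalised with SV40-driven large T antigen and taken on day 7 of differentiation, and a passage number, 4, was stated for wild type only. The sources used here do not state how many clones or animals each line came from. The series design calls the replicates biological (n = 2 per group unless a missing value is named). The p-values rest on the spread between arrays within groups. That spread is pooled over the 3 groups and moderated by limma towards that of all tested probe sets. Genotype, cell line and siRNA vector cannot be told apart in the comparisons with wild type. Eif2s3y, a Y-linked gene, read 872.4 and 960.5 in wild type, 6.253 and 5.129 on the second knockout-control and knockdown arrays, and was missing on the others, so the lines also differed in a sex-linked transcript.

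Array medians lay between 220.9 and 242.7 intensity units, and the 75th percentile ranged from 502.8 on knockdown array 2 to 599.6 on knockdown array 1. Ppargc1b, which encodes PGC-1β, read 2850 and 3162 in wild type, 1862 and 2302 in knockout-control and 533.8 and 223.8 in knockdown cells (knockdown against knockout-control, log2 fold change -2.47 ± 0.32 SE, limma adjusted p = 0.0241). That call was lost without either knockout-control array (highest adjusted p = 0.154). The 5 probe sets of Ppargc1a, which encodes PGC-1α, stood at 0.553 to 0.617 of the wild-type intensity in knockout-control cells, and 3 of them were called. Neither the deleted exons nor where the Ppargc1a probes lie is stated in the sources used here, so these values are a weak check of the deletion. The general adipocyte markers (5 of 6 measured) summed to between 37207 and 43191 on every array. Fabp4, at or near the highest intensity of each array, was the largest part of that sum. None of the 5 was called. Pparg and Lipe read higher and Adipoq lower on both knockout-control arrays than in wild type, while Fabp4 and Cebpa overlapped. Of 6 brown adipocyte markers, all above the mean intensity of 163.6 that a probe set had to exceed to be tested, Ucp1, Cidea, Dio2 and Cox7a1 fell in knockdown against knockout-control, and Ppara and Elovl3 were not called. The knockdown means of Ucp1 (130.2) and Dio2 (64.38) were under that intensity, so both passed the filter through the other groups. Elovl3 read 239.6 and 209.5 in wild type, 1686 and 1903 in knockout-control and 2527 and 1612 in knockdown cells, and rose in knockout-control (limma adjusted p = 0.000283). The 6 summed to 19921 to 21722 in wild type and knockout-control and to 9914 and 7964 in knockdown cells. Of the preadipocyte markers, 4 of the 5 measured were above the filter, Cd34 was below it, and the sum was 1193 to 1585 in wild type and knockout-control against 2658 and 2352 in knockdown cells. Dlk1 (1609 and 1452 in knockdown against 332.9 to 466.5 on the other arrays) and Pdgfra were higher there, while Pdgfrb (309.1 and 187 against 506.7 and 470.5 in wild type) and Thy1 (185.6 and 171.4 against 220.7 and 266.8) were lower in knockdown cells than in wild type. Smooth muscle markers summed to 4594 and 4107 in wild type, 2784 and 2899 in knockout-control and 2334 and 2415 in knockdown cells, with 3 of 4 above the filter and Cnn1 below it. Acta2 and Tagln fell in knockout-control (limma adjusted p = 0.0437 and 0.00129), whereas Myh11 read 354.9 and 364.4 in wild type, 437.6 and 433 in knockout-control and 317.5 and 399.6 in knockdown cells. Macrophage markers (2633 to 3119; 3 of 5 above the filter, Cd68 and Itgam below) and endothelial markers (615 to 714.4; 2 of 4 above, Pecam1 and Cdh5 below) showed no such step in their sums, though the dim Cd68, not tested, read 213.4 and 200.5 in knockdown cells against 79.87 to 117.3 on the other arrays. Skeletal muscle markers summed to 1058 to 1627, with 3 of 5 above the filter, Myog and Myh4 below it, and Myod1 missing from the lowest sum. In bulk RNA, fewer cells of a type and less RNA per cell cannot be told apart.

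Insulin binds a receptor tyrosine kinase, which phosphorylates insulin receptor substrates. These recruit phosphoinositide 3-kinase, whose lipid product activates the AKT kinases. AKT then phosphorylates FOXO factors, which leave the nucleus, so target genes that FOXO factors raise are most active when insulin signalling is low. In brown fat, insulin drives glucose uptake and lipid storage, receptor substrates are needed for preadipocytes to differentiate, and FOXO1 restrains adipocyte differentiation. FOXO1 is also a known partner of PGC-1α on target genes in liver. The arrays measured RNA, and none of the phosphorylation steps.

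Wild-type cells were set against knockout-control cells, and knockdown cells against both, and every difference is the first-named group minus the second in "knockout-control against wild type", "knockdown against knockout-control" and "knockdown against wild type". These 3 comparisons share arrays and are given side by side. A probe set was tested when its mean log2 value was above the 40th percentile of all probe sets, an intensity of 163.6. It was called when its limma p, adjusted by Benjamini-Hochberg over all tested probe sets, was under 0.05. Of the 29 member probe sets, 24 passed this filter and 5 did not. Intensity depends on each probe, so levels were compared between groups and never between probe sets.

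The members that changed were the transcripts of both FOXO factors, 1 probe set each of the receptor and of the catalytic kinase subunit, and 1 of the regulatory subunit. In knockout-control against wild type, 5 of the 24 were called higher and 0 lower. Over all 22723 probe sets tested there, 6.32% were called in either direction, 2.52% higher and 3.8% lower. In knockdown against knockout-control 0 of 24 were called by limma, with 0.625% called over all probe sets and 0.216% called higher. An unadjusted p under 0.05 was found for 5 members there, against 13% of all probe sets. In knockdown against wild type 4 members were called higher and 1 lower, with 9.93% called in either direction over all probe sets, 3.88% higher and 6.05% lower. The median log2 fold change over the tested members was 0.01, -0.11 and 0.09 in the 3 comparisons, against -0.01, -0.00 and -0.03 over all tested probe sets. Scaling all arrays to a common 75th percentile or quantile normalising them moved the share of calls over all probe sets that were higher from 34.5% to 44.9% and 47.9% in the second comparison and from 39.1% to 49.9% and 54% in the third.

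**Figure D1:**
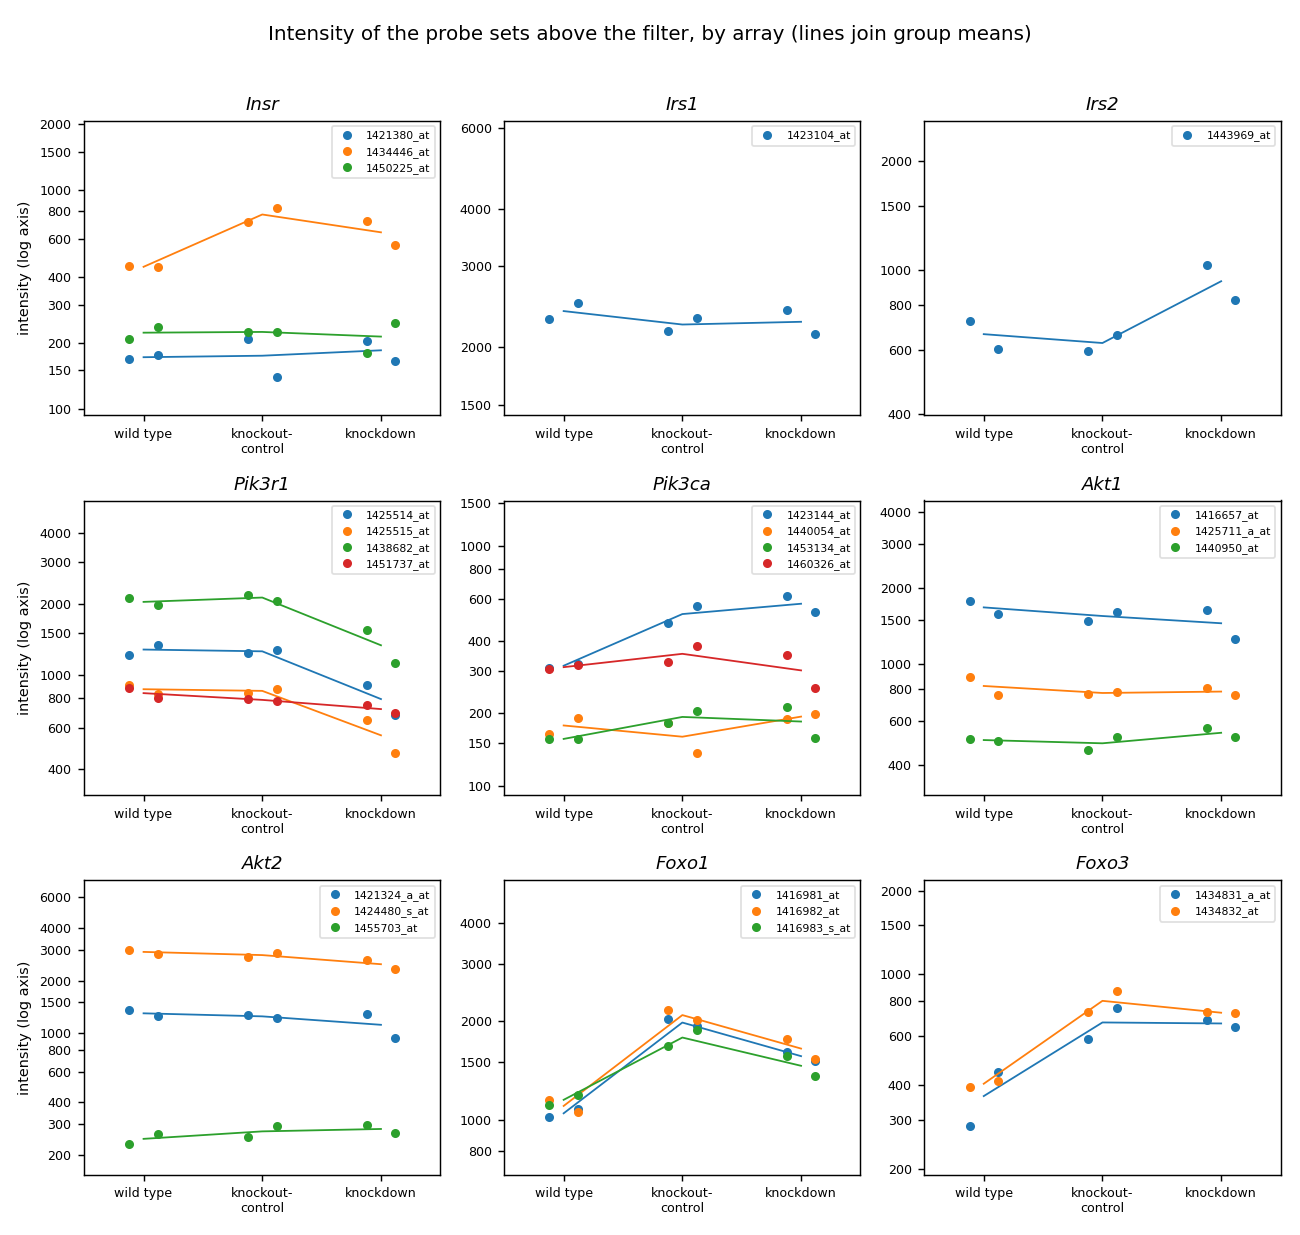
Intensity (log axis) of each of the 24 member probe sets above the filter, by gene, on the 6 arrays; points are single arrays, colours are probe sets and lines join the group means. Foxo1 and Foxo3 step up between wild type and knockout-control, all 4 Pik3r1 probe sets are lowest on both knockdown arrays, and no probe set of Irs1, Akt1 or Akt2 was called.

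Foxo1 and Foxo3, the nuclear end of the route, are described first. Foxo1 (chr3:52268337-52350109, GRCm38.p6, protein coding) and Foxo3 (chr10:42181845-42276695) encode forkhead factors that bind a shared DNA motif and that AKT keeps out of the nucleus. The 250 bases before their RefSeq start sites are shown because both transcripts moved in the same direction. Foxo1 is on the plus strand (chr3:52268087-52268336) and Foxo3 on the minus strand (chr10:42276696-42276945), and both are written 5′ to 3′ in the direction of transcription, from RefSeq of build GRCm38.p6. Capitals mark the GC box of Sp1, GGGCGG or its reverse complement CCGCCC.
Foxo1: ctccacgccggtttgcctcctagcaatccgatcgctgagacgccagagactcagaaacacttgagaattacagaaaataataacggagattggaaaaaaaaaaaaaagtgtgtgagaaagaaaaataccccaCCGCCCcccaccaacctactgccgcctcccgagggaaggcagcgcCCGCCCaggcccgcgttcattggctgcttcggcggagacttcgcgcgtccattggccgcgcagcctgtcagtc
Foxo3: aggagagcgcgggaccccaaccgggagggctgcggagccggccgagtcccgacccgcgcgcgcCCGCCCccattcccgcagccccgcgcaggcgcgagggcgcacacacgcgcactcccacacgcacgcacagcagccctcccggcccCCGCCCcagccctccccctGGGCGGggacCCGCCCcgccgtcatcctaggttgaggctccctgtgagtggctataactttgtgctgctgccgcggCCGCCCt
The Foxo1 window holds 2 such matches in a sequence of 56% GC, and the Foxo3 window 5 in 76.4% GC. A GC box match was found in 32.7% of all 32851 promoter windows of this length. Neither window holds the FOXO motif GTAAACA on either strand, which 3.17% of windows do. A match is only a run of letters in this window.

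Foxo1 had 3 probe sets above the filter, and on each of them both knockout-control arrays were above both wild-type arrays. Probe set 1416981_at read 1016 and 1075 in wild type, 2033 and 1937 in knockout-control and 1615 and 1516 in knockdown cells. The 3 groups were fully separated, with the knockdown cells in between. The transcript rose 1.87-fold from wild type to knockout-control (log2 fold change 0.90 ± 0.15 SE, limma adjusted p = 0.0093).

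Probe set 1416982_at read 1145 and 1058, 2168 and 2017, and 1764 and 1539 in the same order, and rose by the same 1.87-fold (0.91 ± 0.15 SE, limma adjusted p = 0.0113). The signal of 1416983_s_at was 1109 and 1191, 1686 and 1885, and 1563 and 1362. Its groups were also separate, and its change of 0.62 ± 0.16 SE just missed the threshold (limma adjusted p = 0.0527). The remaining probe set, 1456529_at, was dim (127.2 to 182.2) and was not tested. Across the 6 arrays the 3 brighter probe sets correlated with r between 0.94 and 0.99, which describes arrays of 3 groups and is not a test.

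Knockdown cells held less Foxo1 signal than knockout-control cells on all 3 probe sets, but none of the differences passed. The log2 fold changes were -0.34 ± 0.15 SE, -0.34 ± 0.15 SE and -0.28 ± 0.16 SE (limma adjusted p = 0.379, 0.403 and 0.497). The 95% interval of 1416981_at ran from -0.67 to -0.00. Against wild type, knockdown cells stayed 1.48-fold higher on 1416981_at (0.57 ± 0.15 SE, limma adjusted p = 0.0432), while 1416982_at at the same 0.57 missed the threshold (adjusted p = 0.0516).

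Foxo3 showed the same rise and almost no further change. Probe set 1434832_at read 395.1 and 414.3 in wild type, 735.8 and 871.6 in knockout-control and 730.5 and 726.4 in knockdown cells. All 4 arrays of cells lacking PGC-1α lay above both wild-type arrays. The rise was 1.91-fold in knockout-control (0.93 ± 0.15 SE, limma adjusted p = 0.0102) and 1.74-fold in knockdown cells (0.80 ± 0.15 SE, adjusted p = 0.0144).

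The second Foxo3 probe set, 1434831_a_at, read 285.8 and 445 in wild type, 586.6 and 757.6 in knockout-control and 686.5 and 646.5 in knockdown cells. Its wild-type arrays were the farther apart of the 2 probe sets, and the rise in knockout-control of 0.84 ± 0.22 SE did not pass (limma adjusted p = 0.0558). The rise in knockdown cells, also 0.84 ± 0.22 SE, did (adjusted p = 0.0432). Between knockdown and knockout-control the 2 probe sets differed by -0.13 and -0.00 on the log2 scale, with 95% intervals from -0.48 to 0.22 and from -0.50 to 0.49. The third, 1450236_at, read at most 75.4, was missing on 1 array and was not tested.

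The FOXO calls did not hold in every fit with 1 array left out. Such a fit leaves 1 array in a group and fewer residual degrees of freedom. A lost call therefore does not show that the difference came from the array left out. Without either wild-type array, no Foxo1 or Foxo3 probe set was called in knockout-control against wild type (highest limma adjusted p = 0.145 for 1416982_at and 0.115 for 1434832_at). Without knockout-control array 1 only 1434832_at was called, and without knockout-control array 2 none was. The log2 fold changes stayed between 0.85 and 0.96 for 1416982_at and between 0.81 and 1.05 for 1434832_at over the 6 fits with 1 array left out. Of these fits, 2 leave out a knockdown array and keep every array of this comparison. With dim probe sets kept in the test the adjusted p rose to 0.0544 for 1416981_at, 0.0618 for 1416982_at and 0.0591 for 1434832_at, all just over the threshold. The call of 1416981_at in knockdown against wild type was lost with any wild-type or knockout-control array left out (highest adjusted p = 0.337), and that of 1434831_a_at with any array left out except wild-type array 2 (0.352). Both were also lost at a pseudocount of 1, with dim probe sets kept, with only the 2 groups compared and with the replicate block (highest 0.131 and 0.147). That of 1434832_at was lost without either wild-type array (0.15) and with dim probe sets kept (0.0709). The smooth muscle markers Acta2 and Tagln (not Myh11), the brown adipocyte marker Elovl3 and the sex-linked transcript stepped between the same groups as Foxo1 and Foxo3, and their part in the result was not tested.

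**Figure D2:**
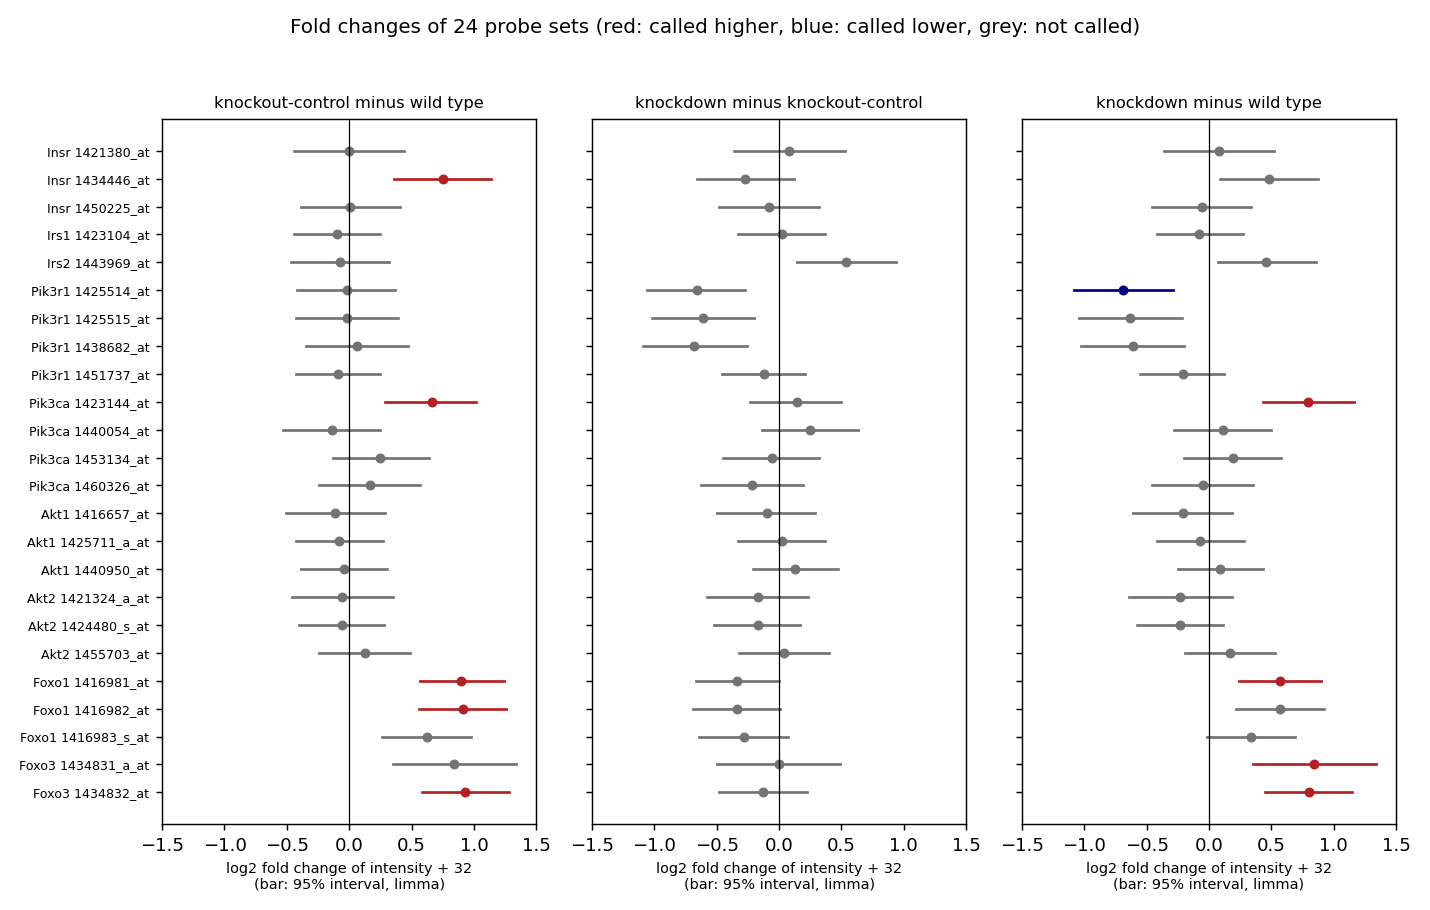
Log2 fold change of intensity + 32 for each of the 24 member probe sets in the 3 comparisons, with the 95% interval from limma; red and blue mark called rises and falls. The FOXO, Insr and Pik3ca calls are in the comparisons with wild type, and no member is called between knockdown and knockout-control cells.

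At the head of the route, Insr (chr8:3150922-3279649) encodes the insulin receptor. Its 3 probe sets did not move together. Probe set 1434446_at read 448 and 444 in wild type, 716.8 and 829.9 in knockout-control and 721.2 and 560.9 in knockdown cells. All arrays of cells lacking PGC-1α were above wild type on this probe set, and the rise in knockout-control was 1.68-fold (0.75 ± 0.17 SE, limma adjusted p = 0.0371). The change in knockdown cells against wild type was 0.48 ± 0.17 SE and did not pass (adjusted p = 0.117). This change was called with the arrays quantile normalised (limma adjusted p = 0.02) or scaled to a common 75th percentile (0.0215).

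Probe set 1421380_at of Insr read 140.5 to 209.6 over all arrays and 1450225_at read 180.2 to 247.9, and their groups overlapped in every comparison. Their log2 fold changes in knockout-control were -0.00 ± 0.19 SE and 0.01 ± 0.18 SE. Over the 6 arrays the probe sets of Insr correlated with r between -0.43 and 0.02. The rise of Insr therefore rests on 1 of 3 probe sets, and it was lost without either wild-type array, without either knockout-control array (highest limma adjusted p = 0.266), with dim probe sets kept (0.124) and with the replicate number as a block (0.0903).

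Irs1 (chr1:82233105-82291439) and Irs2 (chr8:10984681-11008929) encode the adaptors that carry the signal from the receptor to the lipid kinase. The Irs1 probe set read between 2134 and 2493 on all 6 arrays, and its groups overlapped in every comparison. Its log2 fold changes were -0.10 ± 0.15 SE in knockout-control against wild type and 0.02 ± 0.15 SE in knockdown against knockout-control, with 95% intervals from -0.44 to 0.25 and from -0.33 to 0.37.

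The Irs2 probe set read 723.5 and 605 in wild type, 594.8 and 660.8 in knockout-control and 1035 and 826 in knockdown cells. Both knockdown arrays were above the other 4. The difference from knockout-control was 0.54 ± 0.18 SE (95% interval 0.14 to 0.94), with an unadjusted limma p of 0.0137 and an adjusted p of 0.231, and the difference from wild type was 0.46 ± 0.18 SE (adjusted p = 0.137), so neither passed. The latter was called with the arrays scaled to a common 75th percentile (adjusted p = 0.0364) or quantile normalised (0.0301).

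Pik3r1 and Pik3ca, the regulatory and catalytic subunits of the lipid kinase, moved in opposite directions on some of their probe sets. Pik3r1 (chr13:101680761-101768217) encodes subunits that bind the receptor substrates and hold the catalytic subunit. Pik3ca (chr3:32397065-32466112) encodes a catalytic subunit. The 250 bases before the upstream start of Pik3r1 (chr13:101768218-101768467, minus strand) and before Pik3ca (chr3:32396815-32397064, plus strand) are shown for the partners whose signals diverged, in the direction of transcription and from RefSeq of GRCm38.p6. Capitals mark GC boxes, as above, and in Pik3ca also the ETS motif CCGGAAG, present as its reverse complement CTTCCGG.
Pik3r1: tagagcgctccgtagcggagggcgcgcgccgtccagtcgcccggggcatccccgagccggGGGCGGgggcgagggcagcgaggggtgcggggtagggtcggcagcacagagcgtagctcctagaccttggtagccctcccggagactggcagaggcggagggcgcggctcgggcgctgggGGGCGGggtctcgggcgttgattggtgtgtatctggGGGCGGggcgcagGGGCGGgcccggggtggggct
Pik3ca: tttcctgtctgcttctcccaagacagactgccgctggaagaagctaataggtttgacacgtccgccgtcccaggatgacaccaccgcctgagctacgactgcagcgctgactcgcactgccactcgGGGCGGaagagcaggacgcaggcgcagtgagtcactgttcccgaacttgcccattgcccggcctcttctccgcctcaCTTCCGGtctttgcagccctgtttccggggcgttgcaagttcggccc
The Pik3r1 window holds 4 GC boxes in 76.4% GC. The Pik3ca window holds 1 GC box and 1 ETS match, a motif of GABPA found in 6.91% of all windows, in 61.6% GC. A second Pik3r1 window, before an internal start, held no match to any of the 7 motifs searched.

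On 3 of its 4 probe sets Pik3r1 overlapped between wild type and knockout-control and was lowest in knockdown cells. Probe set 1438682_at read 2110 and 1971 in wild type, 2190 and 2067 in knockout-control and 1551 and 1124 in knockdown cells. Probe set 1425514_at read 1220 and 1346, then 1239 and 1283, then 905.2 and 679.2. Both knockdown arrays were below the other 4 on each.

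Probe set 1425515_at showed the same order, with 911 and 832.9 in wild type, 842.6 and 873.4 in knockout-control and 646.2 and 467.2 in knockdown cells. Against knockout-control these 3 probe sets differed by -0.68 ± 0.18 SE, -0.66 ± 0.18 SE and -0.61 ± 0.18 SE on the log2 scale. None of the 3 passed (limma adjusted p = 0.152, 0.143 and 0.185), although their 95% intervals lay below 0, from -1.09 to -0.26, from -1.06 to -0.27 and from -1.02 to -0.20. Against wild type, 1425514_at fell 1.61-fold (-0.69 ± 0.18 SE, limma adjusted p = 0.0416). The others, 1438682_at and 1425515_at, differed by -0.61 and -0.63 and did not pass (adjusted p = 0.0682 and 0.0597). They were called in 4 of 11 and in 5 of 10 alternative settings of the processing. Scaling to a common 75th percentile was 1 of these (limma adjusted p = 0.0324 and 0.0231).

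The remaining Pik3r1 probe set, 1451737_at, read 882 and 796.7, 794.8 and 777, and 747.4 and 689.9, also lowest on the knockdown arrays. Its difference between knockdown and knockout-control was -0.12 ± 0.15 SE (95% interval -0.46 to 0.21), and its r with the other 3 was 0.79 to 0.88 over the 6 arrays, against 0.97 to 0.99 among those 3. The sources used here do not state which isoforms each probe set detects.

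Knockdown array 2 was the lower of the knockdown arrays on all 4 Pik3r1 probe sets and also had the lowest 75th percentile of all arrays. Without knockdown array 1 the knockdown side rests on array 2 alone, the lower of the 2. Over the fits with 1 array left out, log2 fold changes against knockout-control ran from -0.86 to -0.46 for 1425514_at. They ran from -0.83 to -0.39 for 1425515_at, from -0.90 to -0.45 for 1438682_at and from -0.18 to -0.07 for 1451737_at. With quantile normalisation 1425514_at alone was called against knockout-control (limma adjusted p = 0.0487). The call of 1425514_at against wild type was lost with any of 5 arrays left out and held only without knockdown array 1. It was also lost at a pseudocount of 1, with dim probe sets kept, with only the 2 groups compared and with the replicate block (highest adjusted p = 0.136). Of the markers, Ucp1, Cidea, Dio2 and Cox7a1 were lower and Dlk1 and Pdgfra higher in knockdown cells, as given above. Pdgfra was not called against knockout-control (limma adjusted p = 0.221). Elovl3 and Ppara were not called there either, and Pdgfrb and Thy1 were lower in knockdown cells than in wild type. The part of these markers in the difference of Pik3r1 was not tested.

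Pik3ca had 4 probe sets above the filter and 2 below it. On 1423144_at the signal was 309.8 and 322.1 in wild type, 476.2 and 560.7 in knockout-control and 616 and 528.8 in knockdown cells. All cells lacking PGC-1α were above wild type there. The rise was 1.58-fold in knockout-control (0.66 ± 0.16 SE, limma adjusted p = 0.0469) and 1.73-fold in knockdown cells (0.79 ± 0.16 SE, adjusted p = 0.0173).

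The other tested Pik3ca probe sets were not called in any comparison. Their signals were 137.3 to 198.1 for 1440054_at, 156.2 to 212 for 1453134_at and 255.2 to 380.6 for 1460326_at, and their log2 fold changes in knockout-control were -0.14, 0.25 and 0.17. The probe sets 1429434_at (102.6 to 160.3) and 1429435_x_at (79.88 to 198.8) were too dim to test. The rise in knockout-control was lost with any wild-type or knockout-control array left out (highest limma adjusted p = 0.326), at a pseudocount of 1, with dim probe sets kept and with the replicate block. The rise in knockdown cells was lost without either wild-type array (0.159 at most) and with dim probe sets kept (0.0801).

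The AKT kinases, which pass the signal to FOXO factors and to glucose transport, were not called in any comparison, and none of their 6 tested probe sets had an unadjusted limma p under 0.05. Akt1 (chr12:112653821-112674884) read 1265 to 1782 on 1416657_at, 754.1 to 890.5 on 1425711_a_at and 457 to 558.2 on 1440950_at. Its log2 fold changes lay between -0.21 and 0.13 over these probe sets and comparisons. A further probe set, 1442759_at, read 7.267 to 167.1 and was not tested.

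Akt2 (chr7:27591552-27640826), the isoform most tied to insulin-driven glucose uptake in fat, read 2335 to 3009 on 1424480_s_at, 941.6 to 1347 on 1421324_a_at and 230.3 to 296.7 on 1455703_at. On 1424480_s_at both knockdown arrays (2629 and 2335) were below the other 4, with a difference of -0.23 ± 0.15 SE from wild type (95% interval -0.58 to 0.11, limma adjusted p = 0.381). Akt1 was the only member whose windows held the FOXO motif, as TGTTTAC in 1 of its 2 windows. Irs1 and Irs2 were the only ones with the E-box CACGTG, found in 6.02% of all windows. No member window held the ERR motif TCAAGGTCA (0.387% of all windows), the NRF1 motif (0.782%) or the CRE TGACGTCA (1.55%), and Insr was not among the windows matched. Both strands were searched for all 7 motifs in the 13 windows of 8 members, and 8 of the 13 held a GC box.

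Separated groups were common over the whole array. Both knockout-control arrays lay above both wild-type arrays for 9 of 24 member probe sets and below for 1, while 58.4% of all tested probe sets separated in one direction or the other, 27.5% upwards and 31% downwards. Between knockdown and knockout-control 2 members separated upwards and 9 downwards, with 38.2% of all probe sets separating, 18% upwards and 20.2% downwards. Between knockdown and wild type 11 separated upwards and 5 downwards, with 55.2% of all probe sets separating, 25.3% upwards and 29.9% downwards.

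The genes whose profile over the 6 arrays was most like that of the brightest probe set of each called member were taken from 13344 genes with a value on every array. For Foxo1 they were Rhob (r = 0.9996), a small GTPase, Cit (0.9963), a kinase of cell division, and Glul (0.9963), glutamine synthetase. Rhob read 4256 and 4004, 7638 and 7128, and 6437 and 5624 in the order wild type, knockout-control, knockdown, the same order of arrays as Foxo1 1416982_at. For Foxo3 they were D230025D16Rik (0.9972), Fam214a (0.9970) and Lrp8 (0.9952), and for Insr 1434446_at Nr2f1 (0.9989), Acot1 (0.9974) and Trit1 (0.9965). For Pik3ca 1423144_at they were Arhgap24 (0.9987), Nme7 (0.9982) and Dhrs3 (0.9978). For Pik3r1 they were Pts (0.9993), Cycs (0.9931), which encodes cytochrome c, and Recql (0.9928). These r are over 6 points in 3 groups and are a description only.

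Other genes of the route, from lists drawn up for it, were read by the brightest probe set of each gene. Over all genes, 5.86% were called in knockout-control against wild type, 0.645% in knockdown against knockout-control (0.205% higher) and 9.34% in knockdown against wild type (3.74% higher and 5.6% lower). Of 14 tested genes at the receptor, 2 were lower in knockout-control and none was higher. Both were adaptor proteins that bind the insulin receptor and dampen its signal. Grb14 read 971.9 and 1032 in wild type, 123 and 186.5 in knockout-control and 133.3 and 80.89 in knockdown cells, all 4 of the latter far below wild type. It fell in knockout-control (limma adjusted p = 0.000603). The means of these 2 groups were under the filter intensity of 163.6, so the probe set passed the filter through wild type, and the fitted log2 differences of -2.49 ± 0.23 SE here and -2.92 ± 0.23 SE in knockdown cells depend on the added 32 and are no exact fold.

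Grb10 read 3143 and 3379, 800.4 and 1036, and 852.9 and 715.3, a 3.49-fold fall in knockout-control (-1.80 ± 0.18 SE, limma adjusted p = 0.000816). Its 2 other tested probe sets also fell, by 0.79 and 0.70 on the log2 scale. Grb10 is an imprinted gene, and like Grb14 it remained called with each array left out in turn. In knockdown against wild type 2 of the 14 were higher and 3 lower. Grb10 (-2.02 ± 0.18 SE) and Grb14 were again lower, with Irs4, a further receptor substrate (1.99-fold lower, limma adjusted p = 0.00475). Irs3 and Sh2b2, a receptor adaptor, were higher (0.67 ± 0.16 SE and 0.74 ± 0.18 SE, limma adjusted p = 0.0329 and 0.0386). The wild-type mean of Irs3 (160.4) was under the filter intensity of 163.6, so Irs3 passed the filter through the other groups. None of the 14 genes was called by limma between knockdown and knockout-control. There 2 of the 14 had an unadjusted p under 0.05, against 13% of all probe sets. The median over the list was -0.03, -0.04 and -0.03 in the 3 comparisons.

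None of the 11 tested genes of the other lipid kinases and lipid phosphatases was called by limma in any comparison. In each, 1 had an unadjusted p under 0.05, and the median log2 fold change was 0.01, 0.03 and 0.01. Such a p was found for 13% of all probe sets between knockdown and knockout-control, and the share was not computed against wild type. Of 19 tested AKT effectors and related kinases, 2 were higher and 1 lower in knockout-control. Gsk3b, a kinase that AKT inhibits, read 2905 and 3140 in wild type against 1562 and 1761 in knockout-control, and fell 1.80-fold (-0.85 ± 0.16 SE, limma adjusted p = 0.0155). Its 2 other probe sets fell too (-0.71 and -1.08).

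Sgk1, a kinase related to AKT that also phosphorylates FOXO factors, read 138.9 and 87.61 in wild type, 335.2 and 489.8 in knockout-control and 438.9 and 270.3 in knockdown cells. It rose in knockout-control (limma adjusted p = 0.0106). Both wild-type values were under the filter intensity of 163.6, so Sgk1 passed the filter through the other groups, and its fitted log2 difference of 1.61 ± 0.27 SE depends on the added 32 and is no exact fold. Tbc1d4, the AKT substrate that gates glucose transporter movement, read 843.8 and 924.3, 1558 and 1892, and 1294 and 800.2. It rose in knockout-control (0.93 ± 0.23 SE, adjusted p = 0.0457), and its knockdown arrays overlapped wild type. Slc2a4, the insulin-responsive glucose transporter, read 3243 to 4035 and was not called. In knockdown against wild type Sgk1 (1.40 ± 0.27 SE) and Rps6kb2 (0.71 ± 0.17 SE) were higher and Gsk3b (-0.83 ± 0.16 SE) lower.

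Of 15 tested inhibitors of the route, 1 was higher in knockout-control, 1 in knockdown against knockout-control and 2 in knockdown against wild type. Fkbp5, a co-chaperone that brings a phosphatase to AKT and is induced by glucocorticoids, read 794.4 and 850.3 in wild type, 6023 and 5618 in knockout-control and 5417 on knockdown array 1, with no value on the other, so its call in knockdown against wild type (2.67 ± 0.19 SE, limma adjusted p = 0.00033) has 1 knockdown array, assumed to vary like the other groups. It rose 6.85-fold in knockout-control (2.78 ± 0.16 SE, limma adjusted p = 0.000124), and its second probe set rose as well (3.06). Ddit4, a stress-induced inhibitor of mTOR signalling, read 1526 and 1249, 1763 and 1132, and 4231 and 3249. Only the knockdown arrays were high, 2.59-fold above knockout-control (1.37 ± 0.24 SE, adjusted p = 0.0482). The Ddit4 call was lost when any single array of knockout-control or wild type was left out (highest adjusted p = 0.223), with only the 2 groups compared, at a pseudocount of 1, with dim probe sets kept and with the replicate block (highest 0.23).

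Several of these calls rested on single arrays. In knockout-control against wild type the Gsk3b and Tbc1d4 calls were each lost when any single array of knockout-control or wild type was left out (highest limma adjusted p = 0.185 and 0.24), and that of Sgk1 when array 2 of either group was dropped (0.0741). In knockdown against wild type the calls of Irs3 and Rps6kb2 were lost without any wild-type or knockout-control array (0.275 and 0.244), and that of Sh2b2 with any array left out except knockdown array 2 (0.232). Those of Irs4 and Gsk3b there were lost without either wild-type array (0.0598 and 0.153), and those of Sgk1 and Ddit4 without wild-type array 2 (0.101 and 0.0591). With dim probe sets kept, the Irs4 call held and those of the other genes named in these sentences did not, while Grb10, Grb14 and Fkbp5 stayed called against wild type.

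**Figure D3:**
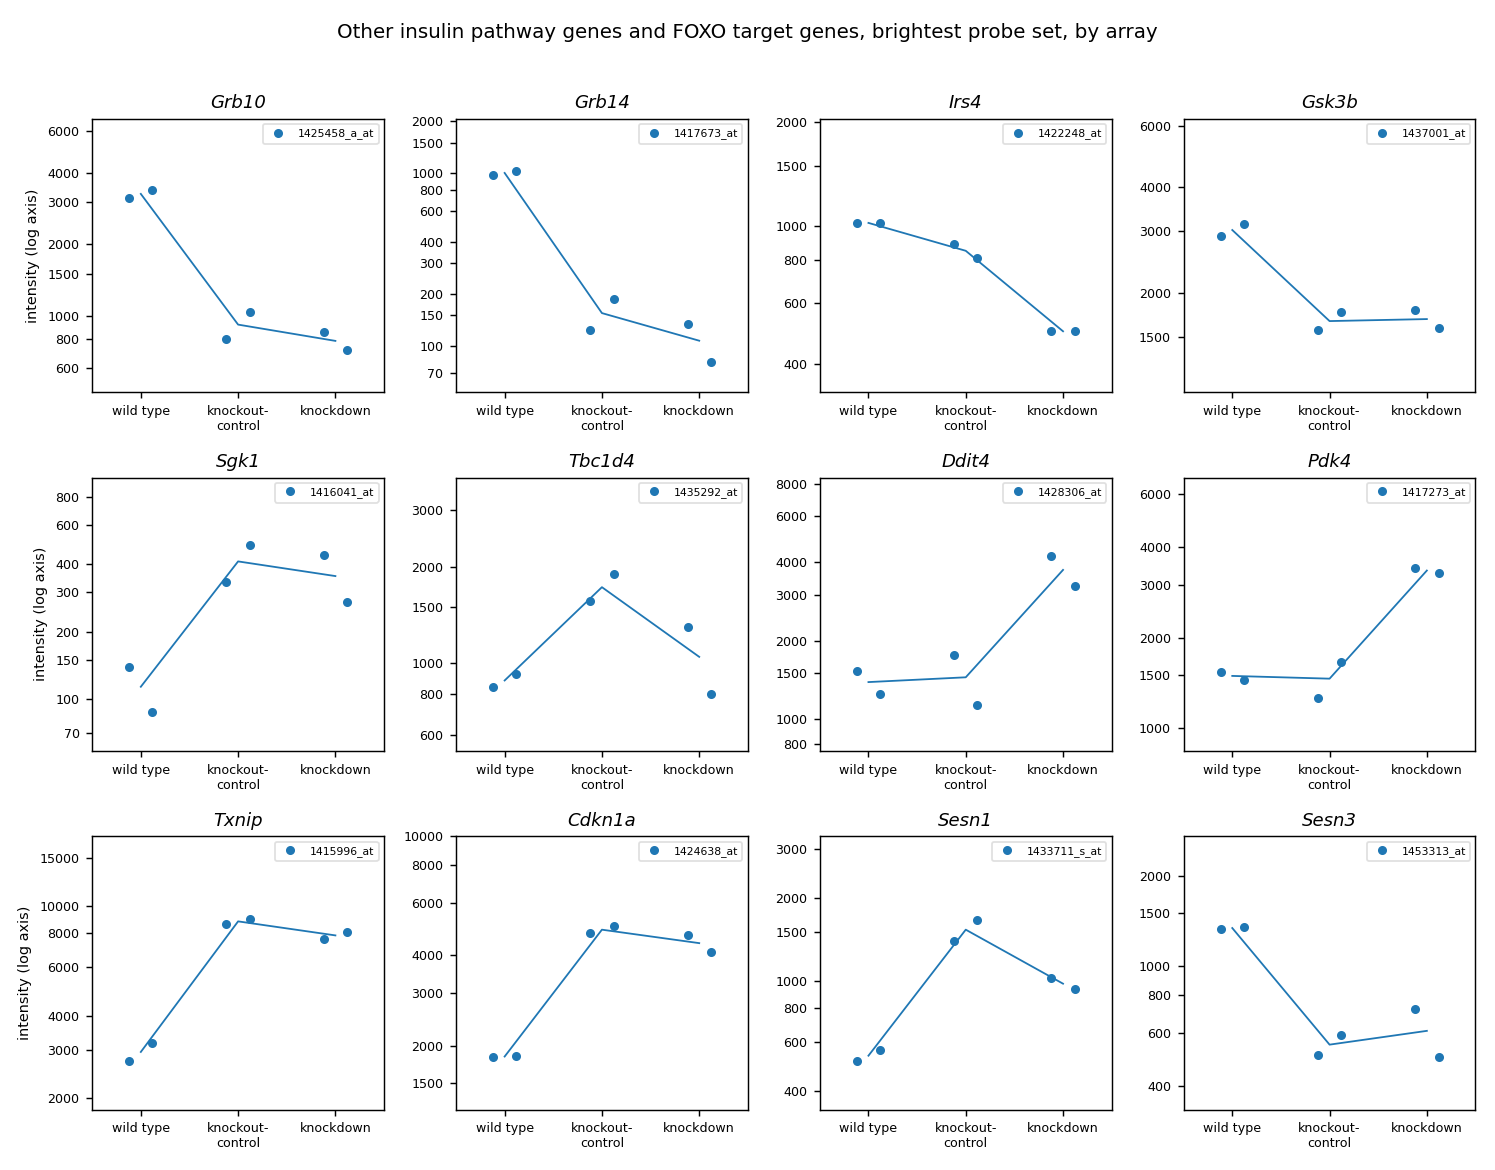
Intensity (log axis) of 12 other genes of the insulin route and FOXO target genes on the 6 arrays, each by its brightest probe set; points are arrays and lines join group means. Grb10, Grb14, Gsk3b and Sesn3 are lower and Sgk1, Txnip, Cdkn1a and Sesn1 higher in both groups lacking PGC-1α, while Ddit4 and Pdk4 are high only on the knockdown arrays.

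Of 15 tested FOXO relatives and regulators, none was called by limma in knockout-control or between knockdown and knockout-control, with 4 and 1 at an unadjusted p under 0.05. Between knockdown and knockout-control 13% of all probe sets had such a p, and this share was not computed for the comparisons with wild type. Foxo4 read 543.9 to 670.7 and was not called in any comparison. In knockdown against wild type Crebbp, an acetyltransferase of FOXO factors, was lower (-0.63 ± 0.16 SE, limma adjusted p = 0.0433), and so was Usp7, a deubiquitinase of them (-0.67 ± 0.17 SE, adjusted p = 0.0446). Both calls were lost with any array left out except knockdown array 1 (highest adjusted p = 0.297 and 0.307). One of the 5 other Usp7 probe sets pointed the other way (0.12).

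Among 28 tested genes known as FOXO targets, 6 were higher and 1 lower in knockout-control against wild type, with 2.48% of all genes called higher and 3.38% lower. The median over these 28 was 0.27, against 0.00 over all genes. The list does not separate genes that FOXO factors raise from genes that they lower, so these values are no measure of FOXO activity. It was also chosen with earlier results of these data known, so its counts and median are a description only. Txnip, which restrains glucose uptake, read 2723 and 3176 in wild type, 8641 and 9007 in knockout-control and 7634 and 8053 in knockdown cells. It rose 2.98-fold in knockout-control (1.57 ± 0.15 SE, limma adjusted p = 0.000797). Cdkn1a, an inhibitor of the cell cycle, read 1830 and 1846, 4754 and 5004, and 4678 and 4120, a 2.63-fold rise (1.39 ± 0.15 SE, adjusted p = 0.00124). Its other tested probe set had the opposite sign, at -0.16 here and -0.45 in knockdown against wild type.

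Sesn1, a stress-induced regulator of mTOR, read 512.7 and 560.2, 1398 and 1669, and 1022 and 933.2, a 2.75-fold rise in knockout-control (1.46 ± 0.16 SE, limma adjusted p = 0.00133). Of its 3 other probe sets, 2 had the same sign and 1 was at -0.11. Sesn3 moved the other way, with 1326 and 1353 in wild type against 505.1 and 590.6 in knockout-control, a 2.37-fold fall (-1.25 ± 0.19 SE, adjusted p = 0.00747). Gabarapl1, an autophagy gene, and Klf15, a metabolic transcription factor, rose 2.20-fold and 2.18-fold (adjusted p = 0.0033 and 0.0337). The remaining call, named after its value was seen, was Cited2 (0.98 ± 0.18 SE, adjusted p = 0.017). Over the 6 fits with 1 array left out, log2 fold changes ran from 1.47 to 1.68 for Txnip and from 1.36 to 1.43 for Cdkn1a. For Sesn1 they ran from 1.33 to 1.58. Of these fits, 2 leave out a knockdown array and keep every array of this comparison. The number of genes called over the list changed between the fits. Sesn3 was no longer called when knockout-control array 1 or wild-type array 2 was dropped (highest adjusted p = 0.0771), nor was Gabarapl1 without wild-type array 1 (0.0517), nor were Klf15 and Cited2 without either wild-type array or knockout-control array 2 (0.174 and 0.164). Acta2 and Tagln (not Myh11), Elovl3 and the sex-linked transcript stepped between these groups as well, and their part in these changes and in those of Grb10, Grb14 and Fkbp5 was not tested.

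Between knockdown and knockout-control 1 of the 28 was called, Pdk4, the kinase that shuts pyruvate dehydrogenase and spares glucose. It read 1539 and 1443 in wild type, 1259 and 1661 in knockout-control and 3404 and 3277 in knockdown cells, 2.28-fold above knockout-control (1.19 ± 0.17 SE, limma adjusted p = 0.0354). This call was lost when any single array of knockout-control or wild type was left out (highest adjusted p = 0.23), at a pseudocount of 1, with dim probe sets kept, with only the 2 groups compared and with the replicate block (highest 0.22). Ucp1, Cidea, Dio2, Cox7a1 and Dlk1 differed between the same groups, while Elovl3, Ppara, Pdgfra, Pdgfrb and Thy1 were not called there. The part of these markers in the Pdk4 and Ddit4 differences was not tested. In knockdown against wild type 7 were higher and 2 lower, with a median of 0.38 against -0.03 over all genes. Gabarapl1, Txnip, Klf15, Cdkn1a and Pdk4 were among the former (1.43, 1.41, 1.35, 1.24 and 1.15), and Sod2, the mitochondrial superoxide dismutase, fell 2.22-fold (-1.15 ± 0.16 SE, adjusted p = 0.00409). Without single wild-type arrays the calls of Klf15 (either array; highest adjusted p = 0.0646) and Pdk4 (array 2; 0.0535) were lost, and those of Gabarapl1, Txnip, Cdkn1a and Sod2 held in all 6 fits. Pck1, a FOXO target of gluconeogenesis, read 472.4 to 859.9 and was not called, and G6pc and Igfbp1, targets in liver, were below the filter.

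**Figure D4:**
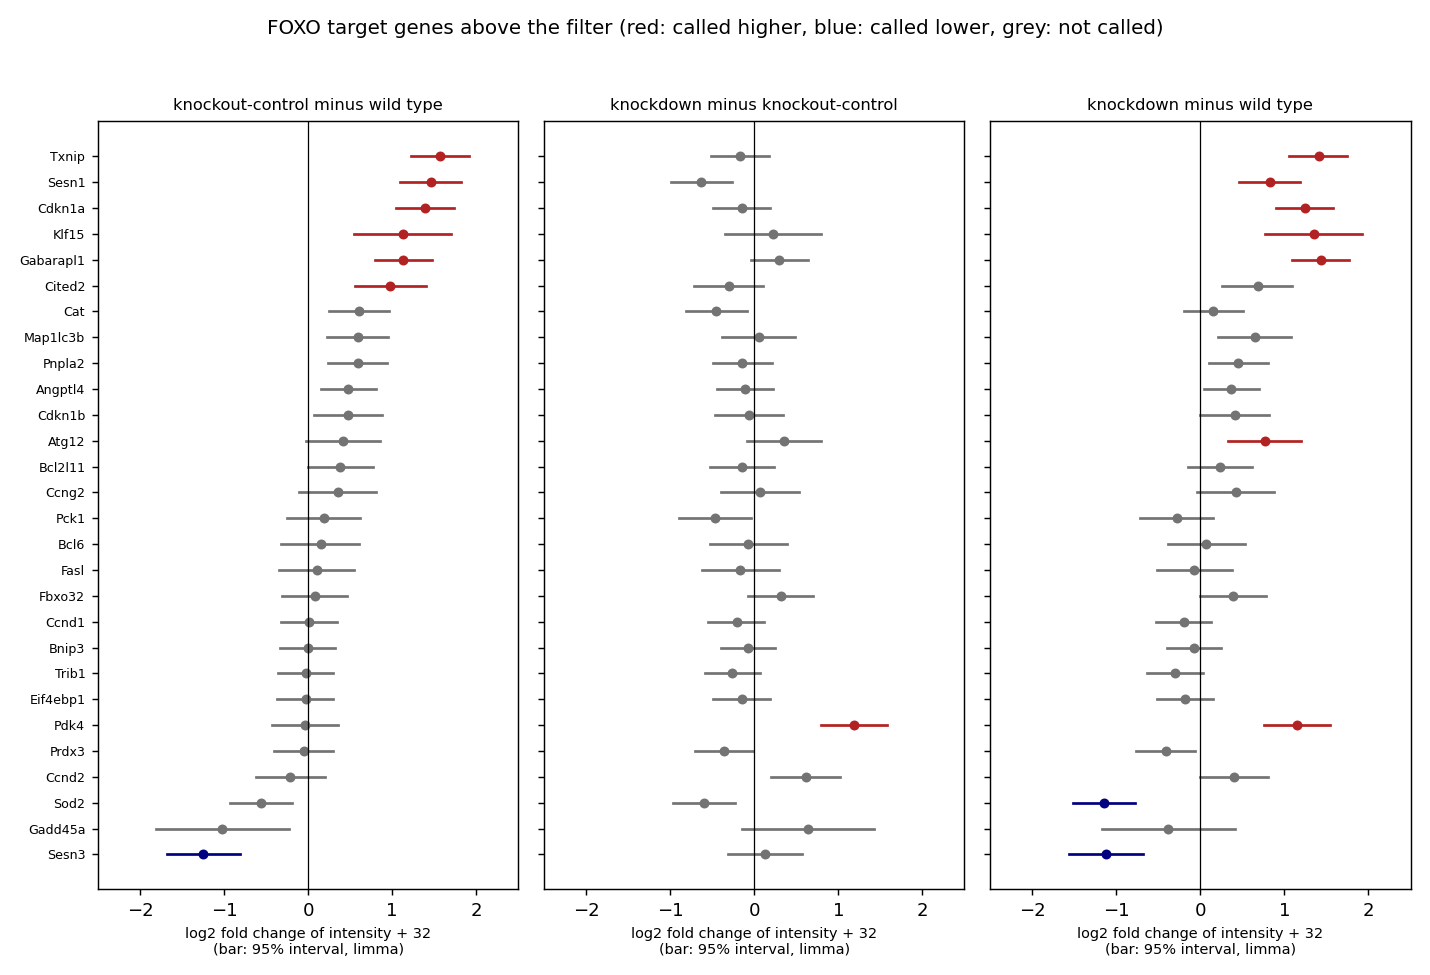
Log2 fold change of intensity + 32 for the 28 tested FOXO target genes in the 3 comparisons, with the 95% interval from limma, in order of the change from wild type to knockout-control; red and blue mark called rises and falls. The calls are 6 higher and 1 lower, then 1 higher (Pdk4), then 7 higher and 2 lower.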

How the data were processed

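The deposited values are linear intensities, 1 for each probe set on each array. The sources used here do not state how probes were summarised, scaled or background corrected, and the deposited scaling was kept. Cells holding the word null (5285) or nothing (870) were kept as missing, of which 1 was in a member. Probe sets were named from the platform annotation, and genes, coordinates and promoters came from RefSeq of GRCm38.p6. Values were taken as log2(intensity + 32), which shrinks the fold changes of dim genes. A single model with group means was fitted with limma 3.58.1 under R 4.3.3 to all 6 arrays for 22731 probe sets with 1 symbol above the 40th percentile (mean log2 of 7.61), with 3 residual and 5.82 prior degrees of freedom and Benjamini-Hochberg adjustment. Every adjusted p is from it or from the named alternative. With 2 arrays a group no exact permutation test can reach 0.05, so none was run. The number of arrays limits the precision.

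The members and gene lists were chosen with earlier results of these data known, as were the tests, and the lists of FOXO targets and inhibitors come from general knowledge. All member probe sets are named. In each other list a gene is read by its brightest probe set, and at most the 6 called genes with the largest change per comparison are named. For each called member gene, the 3 genes with the highest Pearson r to its brightest probe set are given.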

Additional observations from a re-analysis of the deposited data

How the results depend on the processing

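No called member or list gene changed sign under any setting. Numbers are for knockout-control against wild type, knockdown against knockout-control, and knockdown against wild type, in that order. All called probe sets numbered 1435, 142 and 2256, and called members 5, 0 and 5. A pseudocount of 1 gave 1270, 48 and 2024 (members 4, 0 and 2), and one of 100 gave 1683, 278 and 2604 (7, 0 and 8). With no filter there were 489, 6 and 628 (0, 0 and 0), and when the filter was raised to the 60th percentile 1439, 260 and 2250 (7, 0 and 8). Quantile normalisation gave 2658, 526 and 3876 (7, 1 and 11), and a common 75th percentile 2750, 510 and 3868 (7, 0 and 10). One probe set per gene gave 826, 114 and 1365 (4, 0 and 3), and averaging the probe sets of a gene 746, 75 and 1206 (2, 0 and 1). Fits to only the 2 groups compared gave 3143, 39 and 1693 (7, 0 and 2), and a trended, robust prior 1771, 437 and 2749 (7, 0 and 7). Probe sets complete on all arrays gave 1372, 139 and 2169 (5, 0 and 5). With 1 array left out the counts ranged over 394 to 3143, 12 to 897 and 548 to 4109 (members 0 to 7, 0 to 3 and 0 to 6). The causes of these differences were not tested. In each comparison, 2 of the fits with 1 array left out drop an array of the group not compared. Those fits keep every array of that comparison.

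With the replicate number as a block the counts were 757, 17 and 1296 (members 3, 0 and 2). Deviations of same-numbered arrays correlated at r = 0.188 between wild type and knockout-control and -0.113 between wild type and knockdown. Between knockout-control and knockdown r was -0.496, so array 1 of one group tended to deviate like array 2 of the other. Knockout-control array 1 and knockdown array 2 had 75th percentiles of 547 and 502.8, with 334 and 360 empty cells. The other arrays of those groups had 589.1 and 599.6, with 106 and 27 empty cells. The replicate block does not model such a crossing, and its cause was not tested. The settings for genes of the lists were added after the data had been seen. Signal over background limits the 5 dim member probe sets and the tested ones close to the filter. With 2 arrays per group a call that is missing does not show that groups were alike.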
